A study of Mus musculus with 28 samples.

Results

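The livers of male C57/6J mice on a high fat diet (HFD, 6 livers) were compared with those of mice on a standard diet (SD, 5 livers), out of 28 livers on arrays in the whole series. The groups were chosen by the sample titles, and neither diet held an added compound. The mice were 7 weeks old at the start, were fed for 26 weeks and were 33 weeks old when the livers were taken. Each array held the RNA of 1 liver of 1 mouse, with an RNA integrity number above 7.0 per the labels, and 2 of the 30 RNA samples of the study were degraded and not hybridised. The remaining 17 livers came from mice on the high fat diet with quercetin (HQ, 5 livers), with resveratrol (HR, 6 livers) or with both (HQR, 6 livers). The fat content of the diets is not given in the sources used here, and every mouse was male, so the comparison is of 1 sex, 1 strain and 1 time point.

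A liver that receives more fatty acids than it oxidises or exports stores them as triglyceride in lipid droplets. Droplets are coated with proteins of the perilipin and CIDE families, the latter of which fuse small droplets into larger ones. The nuclear receptor encoded by Pparg drives many of these genes in fat cells and is normally low in hepatocytes, whereas Ppara drives fatty acid oxidation. In the mouse, many cytochrome P450 genes of the liver also differ between the sexes, under the control of the pattern in which growth hormone is released.

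Expression is given as log2 of the processed signal minus the 75th percentile of the same array, so 0 is the 75th percentile and 1 unit is a doubling. It ranks livers for a given probe and does not rank genes against each other. Between 61.8% and 73.5% of probes were well above background on the SD arrays and between 64.5% and 82.1% on the HFD arrays (difference 3.74 percentage points, exact two-sided permutation test, p = 0.314). The 75th percentile of the signal was 248 to 361 on the SD arrays and 271 to 513 on the HFD arrays, a mean difference of 121 (exact two-sided permutation test, p = 0.0238). The part of this difference in brightness in the results was not tested. All 9 measured genes of a list of 10 hepatocyte markers were well above background on all 11 arrays, with a mean log2 level of 5.31 to 6.42 in the SD livers and 5.27 to 5.94 in the HFD livers. None of the 9 passed, 7 were below 0 and their median log2 difference was −0.29. The tissue is bulk liver, in which fewer cells of a type and less RNA per cell cannot be told apart.

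Of 21852 genes, 25 entries differed between the diets at an adjusted p under 0.05 (0.114%; limma with Benjamini-Hochberg adjustment). In the HFD livers 15 of them were higher (0.0686%) and 10 lower (0.0458%). They comprise 23 named genes and 2 probes that carry only a name of the array design. Of these, 1 lies beside Cfd and 1 on a transcript described as Cyp2b10. The groups did not overlap for 24 of the 25, against 1.33% of all genes, and Tff3 was the exception. The changes ran from 1.75-fold in Appl1 to 62.8-fold in Cyp2b9. The fitted change was above 4-fold for 10 entries, including Hao2, for which only a bound is known. Moxd1, also among the 10, was well above background on 1 of 6 HFD arrays, so the size of its change is uncertain. Over all genes the median log2 difference was −0.04, with 44.6% of genes above 0. In each of the 4 slides that held arrays of both diets, all 25 differed in the direction of the full comparison. For the 24 without overlap this direction follows from the lack of overlap, so it is not separate support.

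**Figure D1:**
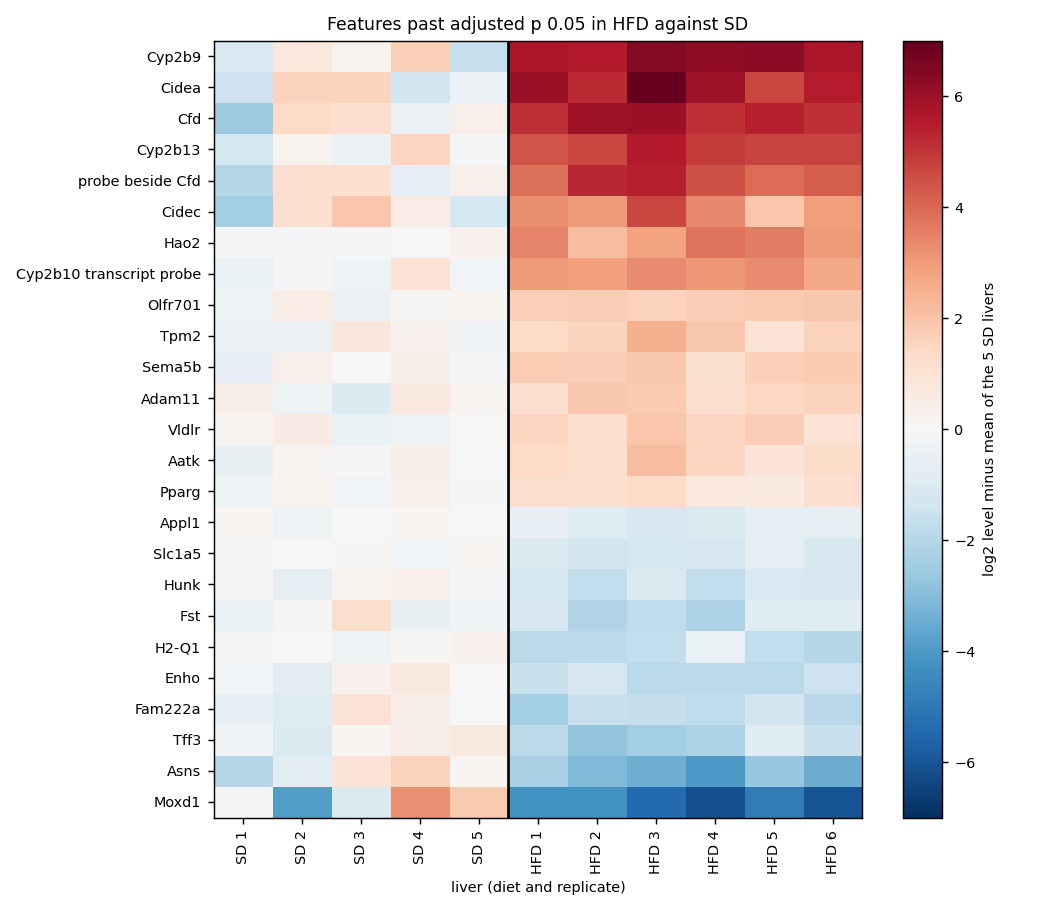
Colour shows the log2 level in each of the 11 livers (columns) minus the mean of the 5 SD livers, for the 25 entries past the threshold (rows, ordered by the log2 difference of HFD from SD). The 15 entries at the top were higher in the HFD livers and the 10 at the bottom lower, and Moxd1 varied most among the SD livers.

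The largest fitted difference was on a probe of Cyp2b9, in a cluster of Cyp2b genes on chromosome 7, which encode cytochromes P450 that hydroxylate steroids and drugs. Cyp2b9 and Cyp2b13, which are known to be expressed more in the female than the male liver of mice, rose together. Their promoters are shown because they are nearly the same sequence and because the array's probes for these genes also share targets. The lines give the 250 bases before the RefSeq start site in build GRCm38.p6, 5′ to 3′, for Cyp2b9 at chr7:26173159-26173408 (+ strand), Cyp2b13 at chr7:26061245-26061494 (+ strand) and Cyp2b10 at chr7:25897408-25897657 (+ strand). Capitals mark the bases at which Cyp2b9 and Cyp2b13 differ.
Cyp2b9: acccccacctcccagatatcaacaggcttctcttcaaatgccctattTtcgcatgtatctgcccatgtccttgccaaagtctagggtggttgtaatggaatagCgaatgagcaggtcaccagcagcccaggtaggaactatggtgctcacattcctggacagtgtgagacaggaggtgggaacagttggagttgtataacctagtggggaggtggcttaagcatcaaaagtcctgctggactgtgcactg
Cyp2b13: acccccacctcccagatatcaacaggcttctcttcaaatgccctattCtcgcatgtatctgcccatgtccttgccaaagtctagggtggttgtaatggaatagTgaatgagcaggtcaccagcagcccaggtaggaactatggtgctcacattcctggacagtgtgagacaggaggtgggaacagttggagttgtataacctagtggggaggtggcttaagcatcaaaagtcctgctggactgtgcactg
Cyp2b10: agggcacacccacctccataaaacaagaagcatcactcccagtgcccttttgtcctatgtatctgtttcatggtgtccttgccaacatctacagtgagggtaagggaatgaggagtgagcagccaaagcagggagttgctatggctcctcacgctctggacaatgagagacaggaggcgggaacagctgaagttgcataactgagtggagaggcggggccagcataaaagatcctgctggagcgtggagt
Cyp2b9 and Cyp2b13 were identical at 248 of 250 positions, and the substitutions, counted from 1 at the 5′ end of the printed run and written from Cyp2b9 to Cyp2b13, are T48C and C104T. An alignment of Cyp2b10 with either of them had 186 identical bases.

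The Cyp2b9 level was −3.33, −1.49, −2.01, −0.58 and −3.87 in the SD livers and ran from 3.28 to 4.15 in the HFD livers, with a median of 3.71. All 6 HFD livers lay far above every SD liver and within 1 unit of each other. The difference was 5.97 ± 0.68 (SE; 62.8-fold, adjusted p = 3.21e-05). Within the 4 slides it ran from 4.73 to 7.31. The Cyp2b13 level was −4.43, −2.96, −3.60, −1.68 and −3.36 in the SD livers and 1.22 to 2.32 in the HFD livers, with a median of 1.51. SD replicate 4 was the highest SD liver for both genes and HFD replicate 3 the highest HFD liver for both. The Cyp2b13 difference was 4.83 ± 0.62 (28.4-fold, adjusted p = 0.000132). Both genes were well above background on 4 of 5 SD arrays and all 6 HFD arrays.

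The probes that stood for these genes are not specific to them by their annotation. The Cyp2b9 probe at chr7:26995607-26995666 (mm9, + strand) lists Cyp2b9 and Cyp2b10, and the Cyp2b13 probe, which spans an exon junction between chr7:26873757-26880713 (mm9, + strand), lists Cyp2b13, Cyp2b9, Cyp2b10 and Cyp2b23. The other kept probe of each lists that gene alone. The sequences of the probe that lists the most genes and of the probe that lists Cyp2b9 alone are printed to show what was hybridised.
Probe listed for 4 genes: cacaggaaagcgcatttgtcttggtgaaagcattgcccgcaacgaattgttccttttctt
Probe listed for Cyp2b9 alone: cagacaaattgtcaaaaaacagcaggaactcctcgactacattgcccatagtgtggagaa
The probe listed for Cyp2b9 alone, at chr7:26983484-26983543 (mm9, + strand), rose by 3.18 ± 0.53 (limma over all 32078 kept probes, adjusted p = 0.00508). The probe listed for Cyp2b13 alone rose by 3.76 ± 0.58 (adjusted p = 0.00229). Both genes passed on a probe annotated to no other gene, with smaller differences than on the shared probes.

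Cyp2b10, which responds to the receptor Nr1i3, has a pair of probes at its locus, and they differed. The RefSeq probe lists Cyp2b10 alone, and the other lists no RefSeq gene. Which Cyp2b transcripts that other probe reads was not tested. The probe on an Ensembl transcript described as Cyp2b10, between chr7:26702417-26711087 (mm9, + strand), was at −4.56, −4.19, −4.43, −3.12 and −4.29 in the SD livers and −1.49 to −0.82 in the HFD livers, with a median of −1.12. It rose by 3.02 ± 0.45 (adjusted p = 0.00115) and was well above background on 2 of 5 SD and 6 of 6 HFD arrays. Under normexp background correction its difference was 1.29 and did not pass (adjusted p = 0.256). The RefSeq probe of Cyp2b10, at the same locus, differed by 0.99 ± 0.55 (adjusted p = 0.879), with overlapping groups. It was well above background on 1 of 5 SD and 6 of 6 HFD arrays, so both probes were near background in the SD livers. Nr1i3 itself, the constitutive androstane receptor, differed by −0.27 ± 0.24 (adjusted p = 0.958).

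Genes at the ends of the cluster did not pass. Cyp2s1 and Cyp2a4, cytochromes P450 there, differed by −0.06 ± 0.36 and −0.05 ± 0.39. Neither passed, and the 3 probes of Cyp2a4, each of which also lists Cyp2a5, lay between −0.09 and 0.05. Between the Cyp2b10 and Cyp2b13 probes, a testosterone 16a-hydroxylase fragment differed by 0.04 ± 0.24. The clone BC026762 and an unnamed probe in the same interval differed by −0.09 ± 0.26 and 0.19 ± 0.23, and none of these passed. Of 13 kept probes in this stretch of the chromosome, 5 passed, against 31 of all 32078 kept probes (0.0966%). The lead probes of Cyp2b9 and Cyp2b13 also list other genes of the cluster, so the 5 are not independent readings.

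**Figure D2:**
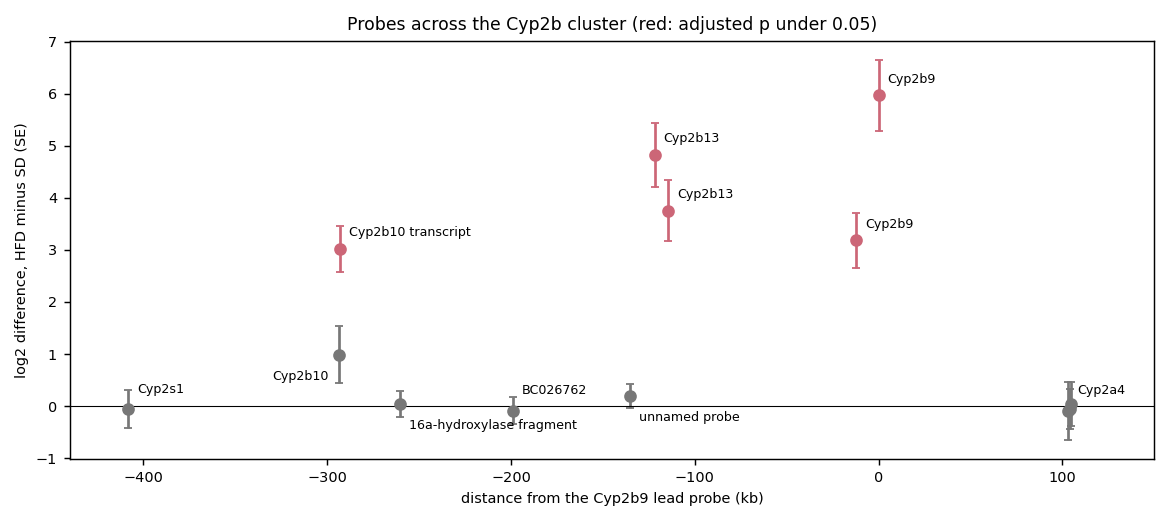
Each point is 1 kept probe of the Cyp2b cluster, with its log2 difference of HFD from SD (vertical axis, bars are SE) against the distance in kb from the Cyp2b9 lead probe. The 5 red points passed at an adjusted p under 0.05 over all kept probes, and the probes of Cyp2s1 and Cyp2a4 lie near 0.

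Other genes that differ between the sexes were mixed. Of 20 measured genes known for higher expression in females, 3 rose (Cyp2b9, Cyp2b13 and Hao2), none fell, and the median was −0.14. Of 24 known for higher expression in males, 1 fell (Moxd1) and the median was −0.16. Hao2 encodes a peroxisomal enzyme that oxidises hydroxy fatty acids. It was at −6.31, −6.33, −6.25, −6.19 and −5.88 in the SD livers, where it was not well above background on any array, and at −4.03 to −2.37 in the HFD livers, with a median of −3.00. It was well above background on all 6 HFD arrays and the groups did not overlap. Set against the lowest well-detected signal of each SD array, Hao2 was at least 2.12-fold higher in HFD, a bound that leaves out the spread between livers (adjusted p = 0.000104 in the fit). It met the filter of 5 arrays through the HFD arrays, since it was well above background on none of the SD, HQ and HR arrays and on 1 of 6 HQR arrays, so its place among the tested genes is not independent of the difference. Under normexp background correction it did not pass (adjusted p = 0.92).

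Moxd1, a relative of dopamine beta-hydroxylase, fell the most of all genes tested that passed. Its level was −0.26, −4.03, −1.16, 3.06 and 1.70 in the SD livers and −6.30 to −4.39 in the HFD livers, with a median of −5.31. SD replicate 2 came close to the HFD livers, and only 1 of 6 HFD arrays was well above background. The size of the fall therefore rests on signal near background in the HFD livers, and over the other fits it ran from −6.15 to −2.87. The difference was −5.18 ± 0.80 (adjusted p = 0.00156), and within the 4 slides it ran from −8.65 to −0.35. The call was lost when the HFD and SD arrays were fitted alone (adjusted p = 0.164) and with array weights (adjusted p = 0.0628).

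Other genes tied to growth hormone or to sex-dependent expression did not pass. Cux2, a repressor found mainly in female liver, was −1.62 ± 0.34 (adjusted p = 0.0582), with every HFD liver below every SD liver. It passed under 8 alternatives, among them slide as a random block (adjusted p = 0.0171), but not with slide as a fixed block (adjusted p = 0.111). Bcl6, a repressor found mainly in male liver, was −1.22 ± 0.41 (adjusted p = 0.515). Cish, a target of growth hormone signalling, was 2.13 ± 1.00 (adjusted p = 0.787), with SD replicate 5 at 3.44 and HFD replicate 3 at 1.12 inside the range of the other diet. Cyp26a1, which breaks down retinoic acid, was 2.82 ± 0.85 (adjusted p = 0.419), with HFD replicate 4 at 5.84 and the other HFD livers at 0.17 to 2.47. Igf1, the main growth hormone target of the liver, differed by −0.03 ± 0.23.

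Among genes of the lipid droplet surface, a pair of CIDE family members rose. Of 19 measured genes of that list, 2 rose (Cidea and Cidec), none fell, and the median was 0.07. Cidea was at −2.50, 0.57, 0.51, −2.42 and −1.49 in the SD livers and at 3.62 to 6.69 in the HFD livers, with a median of 4.65. Even the lowest HFD liver stood well above the highest SD liver. The difference was 5.86 ± 0.80 (57.9-fold, adjusted p = 0.000331), and within the 4 slides it ran from 3.60 to 9.11. Cidec, also called Fsp27, was at −2.10, 1.43, 2.18, 0.78 and −0.96 in the SD livers and at 2.20 to 4.94 in the HFD livers, with a median of 3.40. HFD replicate 5 and SD replicate 3 were almost level, so the groups only just failed to overlap. The difference was 3.19 ± 0.58 (9.10-fold, adjusted p = 0.0134). The Cidec call was lost without SD replicate 5 (adjusted p = 0.0647), without HFD replicate 3 (adjusted p = 0.058) and when the HFD and SD arrays were fitted alone (adjusted p = 0.258).

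The perilipins and lipases did not pass. Plin4, a perilipin, was 1.77 ± 0.55 (adjusted p = 0.461), with SD replicate 1 at 2.06 and the other 4 SD livers at 4.95 to 6.20. Plin2, the perilipin most used as a marker of stored fat in liver, was −0.12 ± 0.48, and its SD livers ranged from 4.10 to 7.26. Plin5, which tethers droplets to mitochondria, was −0.39 ± 0.51. Mgll and Pnpla2, which hydrolyse monoglycerides and triglycerides, were 0.54 ± 0.19 and −0.46 ± 0.22.

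Of 20 measured genes of the Pparg list, 3 rose (Cfd, Pparg and Vldlr), none fell, and the median was 0.19. Pparg was at 1.60, 2.13, 1.72, 2.26 and 1.77 in the SD livers and at 2.56 to 3.32 in the HFD livers, with a median of 3.03. All HFD livers lay above all SD livers, by a small margin. The difference was 1.05 ± 0.20 (2.07-fold, adjusted p = 0.0164). With the replicate block, which pairs livers of the same number, the adjusted p was 0.0857. The Pparg call was also lost when any 1 of SD replicates 1, 3 and 5 and HFD replicate 3 was left out (adjusted p up to 0.0765). It was lost as well when the HFD and SD arrays were fitted alone (adjusted p = 0.133), and under array median scaling and normexp. Vldlr, a receptor for triglyceride-rich lipoproteins, was at −0.02, 0.34, −0.69, −0.52 and −0.22 in the SD livers and at 0.71 to 1.75 in the HFD livers, with a median of 1.28. Its difference was 1.48 ± 0.28 (2.78-fold, adjusted p = 0.0207), and another probe of the gene gave 1.26 ± 0.31 (adjusted p = 0.174). The Vldlr call was lost when any 1 of SD replicates 3, 4 and 5 and HFD replicates 3, 4 and 5 was left out, with adjusted p up to 0.0966. It was also lost when the HFD and SD arrays were fitted alone (adjusted p = 0.0742) and with array weights (adjusted p = 0.0979). Mogat1, which makes diglyceride, was 1.23 ± 0.29 (adjusted p = 0.10) and passed with slide as a block (1.38, adjusted p = 0.0183). Cd36, a fatty acid transporter, was 1.65 ± 0.54 (adjusted p = 0.498), and Fabp4, a fatty acid binding protein of fat cells and macrophages, was 0.10 ± 0.38.

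Cfd had the smallest p of all genes. It encodes complement factor D, or adipsin, the protease that cleaves factor B in the alternative pathway, which fat cells secrete in large amounts. Its probe lies at chr10:79355302-79355361 (mm9, + strand). It was at −2.14, 1.78, 1.57, −0.05 and 0.74 in the SD livers and at 5.50 to 6.37 in the HFD livers, with a median of 5.65. The HFD livers lay within 1 unit of each other, and SD replicate 1 was the lowest liver. The difference was 5.45 ± 0.58 (43.7-fold, adjusted p = 1.36e-05), and within the 4 slides it ran from 4.54 to 7.64. A design probe beside it, between chr10:79354900-79355125 (mm9, + strand), followed Cfd, at 4.53 ± 0.59 (adjusted p = 0.000132). Both were called under every alternative run.

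The genes next to Cfd in the same cluster of serine proteases, and the rest of complement, gave other values. Elane, neutrophil elastase, was well above background on no SD array and on 5 of 6 HFD arrays, at least 1.12-fold higher in HFD by the same bound as for Hao2, and did not pass (adjusted p = 0.46). Prtn3, another neutrophil protease, was −0.08 ± 0.37, and Med16, on the other side, was −0.13 and −0.18 on its 2 probes. Of 31 measured complement genes, Cfd alone rose, none fell, and the median was −0.03. Cfb and C3, which act with factor D and are named here after their values were seen, differed by −0.01 ± 0.33 and −0.24 ± 0.23. Of 8 measured fat cell markers out of 10 listed, Cfd alone passed, and the median was 0.01. The mean log2 level of the other 7 ran from −0.34 to 0.80 in the SD livers and from −0.47 to 0.63 in the HFD livers, and Adipoq, the defining hormone of fat cells, was −1.04 ± 0.60 (adjusted p = 0.897). Of 9 measured neutrophil markers none passed, 6 were above 0 and 3 below, and the median was 0.05, or −0.09 under normexp. S100a8 and S100a9 were 1.02 ± 0.43 and 0.94 ± 0.43 (adjusted p = 0.713 and 0.769), with HFD replicate 1 highest for both.

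**Figure D3:**
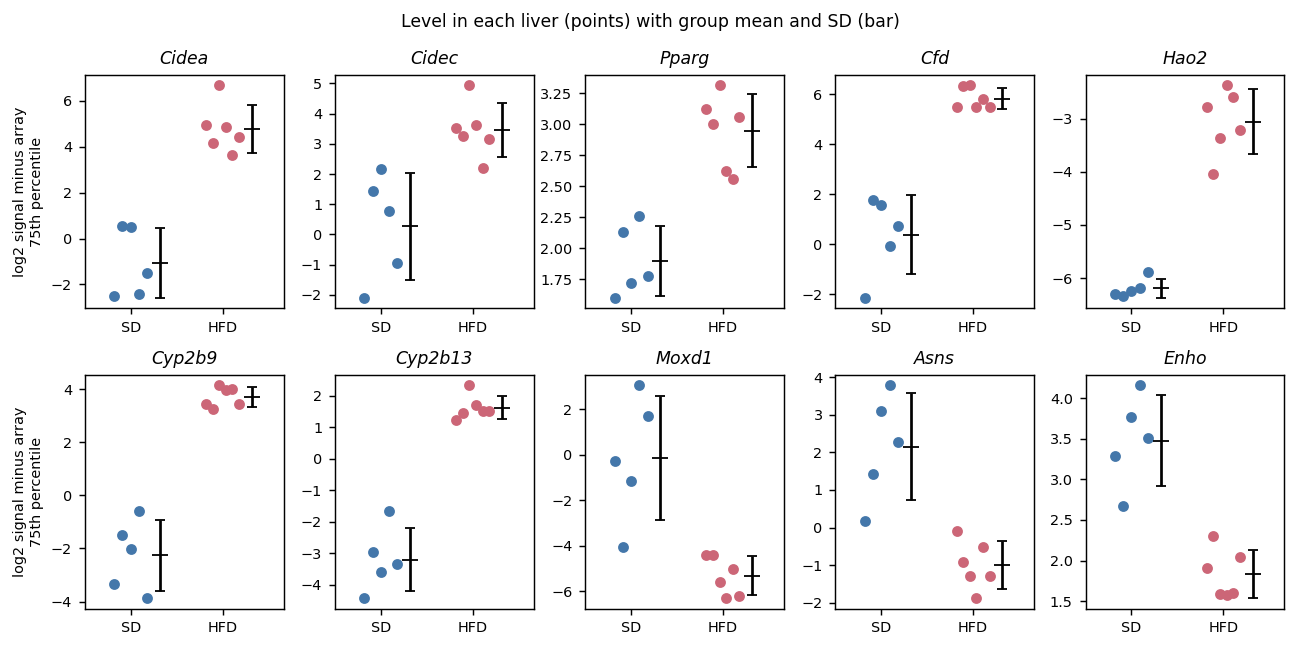
Points are the log2 level, relative to the 75th percentile of the array, of 10 genes in each of 5 SD livers and 6 HFD livers, and bars are the mean and SD of each group. Each panel has its own vertical scale. The groups are apart in every panel, least so for Cidec, Asns and Moxd1.

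A pair of genes of amino acid supply fell. Asns, asparagine synthetase, makes asparagine from aspartate and glutamine and is known as a target of the transcription factor Atf4, which is activated when amino acids run short. It was at 0.17, 1.43, 3.11, 3.78 and 2.27 in the SD livers and at −1.88 to −0.10 in the HFD livers, with a median of −1.10. SD replicate 1 was close to HFD replicate 1, which share a slide. The difference was −3.15 ± 0.52 (8.90-fold lower, adjusted p = 0.00384), and within the 4 slides it ran from −5.06 to −0.27. Slc1a5, which imports glutamine and other neutral amino acids, was at 1.73, 1.79, 1.89, 1.59 and 1.99 in the SD livers and at 0.49 to 1.13 in the HFD livers, with a median of 0.64. Neither group spread by as much as 1 unit, and they did not overlap. The difference was −1.08 ± 0.21 (adjusted p = 0.0209), and 0.0882 with the replicate block. The Slc1a5 call was lost when any 1 of SD replicates 2, 3 and 5 and HFD replicates 2, 3, 4 and 6 was left out, with adjusted p up to 0.0838.

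Of 32 measured genes of the amino acid and stress response list, 1 rose (Vldlr), 2 fell (Asns and Slc1a5), and the median was −0.23. Atf4, Ddit3 and Trib3, the regulators of that response, were −0.32 ± 0.20, −0.38 ± 0.26 and −0.43 ± 0.45, and none passed. Chac1, which degrades glutathione, was 1.65 ± 0.46 (adjusted p = 0.29), opposite to Asns, and passed with slide as a random block (adjusted p = 0.0321). Cbs, an enzyme of cysteine synthesis, was −0.74 ± 0.19 (adjusted p = 0.182). The Asns promoter is printed because it holds the letters of the core of the element that Atf4 is known to bind with C/EBP proteins. The line gives the last 100 bases before the RefSeq start site, at chr6:7693210-7693309 (GRCm38.p6, − strand), 5′ to 3′, with the match to TGATGNAA in capitals, 16 to 23 bases before the start.
Asns: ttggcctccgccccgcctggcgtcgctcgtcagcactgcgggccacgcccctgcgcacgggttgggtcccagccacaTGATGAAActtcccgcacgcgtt
On either strand of the 250 bases before the start, TGATGNAA was found for 7 of the 28 listed genes with a promoter entry (25.0%), and for 3.91% of 27025 genes with an entry. The 7 were Atf3, Asns, Chac1, Slc7a11, Nupr1, Vldlr and Fgf21, which include genes that rose, fell and did not pass, and a match of letters is a description only. TCACNCCAC, the letters of a sterol regulatory element, was found for 1 of 16 cholesterol genes with an entry and 1.22% of all genes.

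Among genes for secreted proteins of the liver, 3 fell. Of 27 measured genes of that list, these were Enho, Tff3 and Fst, none rose, and the median was −0.18. Enho encodes adropin, a peptide studied for its part in glucose and lipid balance. It was at 3.29, 2.67, 3.77, 4.16 and 3.51 in the SD livers and at 1.58 to 2.30 in the HFD livers, with a median of 1.75. The difference was −1.64 ± 0.25 (3.12-fold lower, adjusted p = 0.00118), and within the 4 slides it ran from −2.57 to −0.37. Tff3, a trefoil peptide, was at −0.82, −1.59, −0.42, −0.12 and 0.06 in the SD livers and at −3.35 to −1.41 in the HFD livers, with a median of −2.61. HFD replicate 5 lay above SD replicate 2, the only overlap among the 25 entries. The Tff3 difference was −1.92 ± 0.30 (adjusted p = 0.00179). Tff3 is also a marker of bile duct cells: of 10 measured markers of that list it alone passed, the median was −0.26, and the mean level of the other 9 ran from −0.66 to 0.08 in SD and from −1.11 to −0.10 in HFD. Their part in the Tff3 result was not tested. Fst encodes follistatin, which binds activin. It was −1.48 ± 0.29 (adjusted p = 0.0271), was lost with slide as a block (adjusted p = 0.0583) and when any 1 of SD replicates 2 and 3 and HFD replicates 2, 3 and 4 was left out, with adjusted p up to 0.113. Igfbp1, a binding protein, and Fgf21, a hormone, both tied to fasting, were −1.22 ± 0.58 and −0.98 ± 0.83 and did not pass. Their SD replicates differed widely, from 2.24 to 5.54 and from −0.67 to 3.41.

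The remaining changed genes have varied roles. Aatk, a kinase first known from apoptosis, rose by 1.41 ± 0.24 (adjusted p = 0.00429). Its SD livers were at 1.98, 2.69, 2.42, 2.98 and 2.45 and its HFD livers at 3.42 to 4.68, with a median of 3.83. Adam11, a catalytically inactive ADAM protein, rose by 1.53 ± 0.29 (adjusted p = 0.0164), and all 3 of its probes passed. It did not pass with slide as a block (adjusted p = 0.073) or the replicate block (adjusted p = 0.0882), or when any 1 of SD replicates 2 and 3 and HFD replicates 2 and 3 was left out. Sema5b, an axon guidance protein, rose by 1.66 ± 0.28 (adjusted p = 0.00429) on 1 probe, while its other 2 probes gave 0.42 ± 0.38 and 0.27 ± 0.22 and did not pass. Tpm2, a tropomyosin of muscle, rose by 1.67 ± 0.33 (adjusted p = 0.0269), and its other probe gave 1.67 ± 0.35 (adjusted p = 0.0546). It was the only one of 10 measured muscle markers to pass, and the mean level of the other 9 was −3.82 to −2.13 in SD and −4.00 to −2.03 in HFD. Tpm2 did not pass with slide as a block (adjusted p = 0.0529) or when any 1 of SD replicates 1, 2 and 5 and HFD replicates 2, 3, 4 and 6 was left out. Olfr701, an olfactory receptor gene, rose by 1.75 ± 0.36 (adjusted p = 0.0382), was lost when any 1 of 10 of the 11 arrays was left out, and did not pass with the replicate block (adjusted p = 0.135).

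Among genes that fell, H2-Q1, a class I histocompatibility gene, was at −1.25, −1.12, −1.50, −1.06 and −0.86 in the SD livers and at −3.18 to −1.63 in the HFD livers, with a median of −2.96. HFD replicate 4 was nearest to the SD livers. It fell by 1.61 ± 0.28 on the log2 scale (adjusted p = 0.00617), and the 4 within-slide differences were −2.32 to −1.78. Under normexp background correction its difference was −1.02 and did not pass (adjusted p = 0.716). It was the only one of 18 measured genes of that family and its pathway to pass, and H2-Q7 and H2-D1 were −0.33 ± 0.14 and −0.20 ± 0.12. Class I genes are near copies of each other, so which of them the probe reads is uncertain. Hunk, a kinase, fell by 1.31 ± 0.23 (adjusted p = 0.00821) and Fam222a by 1.77 ± 0.34 (adjusted p = 0.0225). Fam222a did not pass with slide as a block (adjusted p = 0.0787), with the replicate block (adjusted p = 0.057) or when any 1 of SD replicates 3, 4 and 5 and HFD replicates 1, 3, 4 and 6 was left out. Appl1, an adaptor of adiponectin and insulin signalling, fell by 0.81 ± 0.16 (adjusted p = 0.0351), whereas its other probe gave −0.15 ± 0.34. The Appl1 call was lost with slide as a block (adjusted p = 0.0913), with the replicate block (adjusted p = 0.0686) and when any 1 of SD replicates 1, 3, 4 and 5 and HFD replicates 2, 3 and 4 was left out.

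The livers of a diet were not alike. Among the 15 entries that rose, HFD replicate 3 was the highest HFD liver for 11 and SD replicate 1 the lowest SD liver for 10. When the HFD and SD arrays were fitted alone, which leaves fewer arrays to estimate the spread, 10 of the 25 passed. Among those that did not were Enho (adjusted p = 0.0737), Asns (adjusted p = 0.128), Tff3 (adjusted p = 0.151), Aatk (adjusted p = 0.105) and Hunk (adjusted p = 0.0933). The others lost in that fit were Moxd1, Cidec, Pparg, Vldlr, H2-Q1, Adam11, Fam222a, Tpm2, Fst and Appl1 (adjusted p 0.0742 to 0.337). Under array median scaling, Aatk, H2-Q1, Hunk, Pparg, Adam11, Slc1a5, Fam222a, Tpm2, Appl1 and Olfr701 did not pass (10 of the 25, adjusted p 0.054 to 0.628). Under normexp background correction, Hao2, the Cyp2b10 transcript, Tff3, H2-Q1, Pparg, Adam11, Fst, Appl1 and Olfr701 did not pass (9 of the 25). Olfr701 was also lost under quantile normalization (adjusted p = 0.0997), and Olfr701 and Appl1 in the deposited value table (adjusted p = 0.0626 and 0.149). Sema5b did not pass when the mean of all its probes was used (adjusted p = 0.363). HFD replicate 3 was among the arrays whose removal moved the count of called genes most, from 25 to 15. Without SD replicate 3 the count was 18, and it was 19 without SD replicate 5, HFD replicate 2 or HFD replicate 4.

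Most genes of cholesterol synthesis lay below 0 (8.33% above 0, against 44.6% of all genes), and none passed with the settings of the comparison above. Of 24 measured members, 22 were below 0 and the median was −0.32, and 8 had an unadjusted p under 0.05 with a lower level in HFD, against 2.8% of all genes. The hepatocyte markers had a median of −0.29, and their part in this and the other lists below 0 was not tested. Sqle, squalene epoxidase, was at 1.11, −1.46, −0.58, −1.17 and 0.47 in the SD livers and at −3.19 to −1.24 in the HFD livers, with a median of −2.26. The groups overlapped, since HFD replicate 4 lay above SD replicate 2. The difference was −1.90 ± 0.41 (adjusted p = 0.0615), and Sqle passed under 7 alternatives, among them slide as a random block (−1.93, adjusted p = 0.0165), but not as a fixed block (adjusted p = 0.0979). Cyp51, lanosterol demethylase, was −1.27 ± 0.41 and Fdft1, squalene synthase, −0.99 ± 0.35. Abcg8, which exports sterol into bile with Abcg5, was 0.87 ± 0.25 (adjusted p = 0.329) with groups that did not overlap, and Abcg5 was 0.43 ± 0.32.

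Bile acid and lipoprotein genes also lay mostly below 0. In the bile acid and apolipoprotein lists 23.1% and 22.2% of genes were above 0, against 44.6% of all genes. None of 26 bile acid genes passed, 20 were below 0 and the median was −0.20. Cyp8b1, which makes cholic acid, was at −1.35, −0.12, 0.42, 0.01 and −1.01 in the SD livers and at −3.01 to −1.65 in the HFD livers, and the groups did not overlap (−1.68 ± 0.38, adjusted p = 0.0833). It passed under 3 alternatives, among them slide as a random block (adjusted p = 0.0409), but not as a fixed block (adjusted p = 0.219). Cyp7a1, the enzyme that starts the classic route to bile acids, was −0.51 ± 0.59. None of 18 apolipoprotein genes passed, 14 were below 0 and the median was −0.19, or −0.02 under quantile normalization. Apom, which carries sphingosine 1-phosphate on HDL, was −1.04 ± 0.23 (adjusted p = 0.0731) and Apoa1, the main protein of HDL, −0.62 ± 0.19 (adjusted p = 0.476), both with every HFD liver below every SD liver. Apom passed under 6 alternatives, among them slide as a random block (adjusted p = 0.00966), but not as a fixed block (adjusted p = 0.0529).

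In fat synthesis and oxidation, 1 of the genes listed passed. None of 20 lipogenic genes passed and the median was 0.07, or −0.09 with slide as a block. Srebf1, the factor that drives them, was 1.23 ± 0.58, Scd1 0.63 ± 0.55, Fasn 0.15 ± 0.63 and Acaca −0.32 ± 0.40. Fasn in the HFD livers ran from 4.64 to 7.75, a wider range than the difference. Of 35 genes of fatty acid oxidation and Ppara targets, Hao2 alone passed, none fell, and the median was −0.10. Hao2 was not well above background on any SD array and did not pass under normexp (adjusted p = 0.92). Ppara was 0.20 ± 0.25, Cpt1a, which lets fatty acids into mitochondria, −0.30 ± 0.35, Ppargc1a, a coactivator, −0.97 ± 0.29, and Vnn1, a Ppara target, 1.05 ± 0.42. None of these 4 passed. G6pc, the last enzyme of glucose output, was −0.61 ± 0.47.

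No gene of the inflammation (24 measured), extracellular matrix (30) or cell cycle (26) lists passed, with medians of 0.10, −0.02 and 0.16. These signs were not stable, since the inflammation and cell cycle medians were −0.12 and −0.01 under normexp and the matrix median was 0.02 with slide as a block. Ccl2 and Ccr2, a chemokine and its receptor, were 0.74 ± 0.35 and 0.58 ± 0.24, Tnf was 0.43 ± 0.39 and near background in both diets, and Icam1 was −0.55 ± 0.21. Col1a1, Col3a1 and Acta2, genes of scar-forming cells, were 0.35 ± 0.37, 0.51 ± 0.28 and 0.61 ± 0.79. An unadjusted p under 0.05 was found for 6 cell cycle genes, all higher in HFD, against 3.34% of all genes, among them Mcm3, a replication helicase subunit, at 0.63 ± 0.21. Of 29 acute phase genes none passed, 23 were below 0 and the median was −0.17, with Trf, the iron carrier, at −0.66 ± 0.19. The share of acute phase genes above 0 was 20.7%, against 44.6% of all genes. Of 20 urea cycle and ammonia genes none passed and the median was −0.35. Of 10 markers of resident macrophages none passed, 7 were below 0 and 3 above, and the median was −0.45. Clec4f, their defining lectin, was the lowest at −0.82 ± 0.30 (adjusted p = 0.581). Timd4 was the highest at 0.62 ± 0.36 (adjusted p = 0.897) and was well above background on 2 of 5 SD and 5 of 6 HFD arrays.

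**Figure D4:**
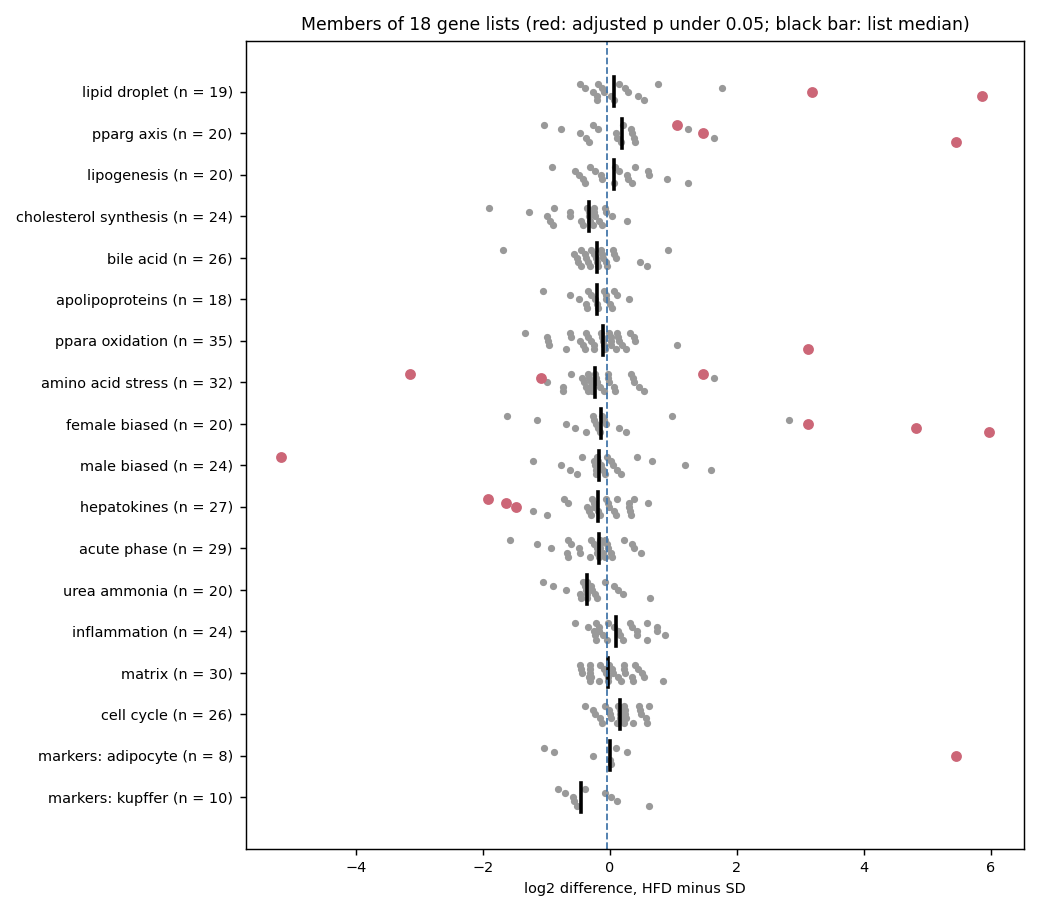
Points are the log2 differences of HFD from SD of the measured members of 18 gene lists (rows, with the number of members), black bars the list medians, and the dashed line the median of all genes. Red members passed at an adjusted p under 0.05. The cholesterol synthesis, urea and resident macrophage (Kupffer) lists have the lowest medians, at −0.32, −0.35 and −0.45.

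Fitting slide as a block called 32 genes (0.146%), of which 19 were among the 25, and a random slide block called 81 (0.371%), all 25 among them. The replicate block, which pairs livers by number, called 20 (0.0915%), 19 of them among the 25. Without adjustment, 6.14% of all genes had a p under 0.05. Genes that did not pass without a block but did with slide as a fixed block included Lgi4, a secreted glial protein (−1.32, adjusted p = 0.00321), Lgals1, galectin 1 (1.39, adjusted p = 0.00515), Serpina7, the carrier of thyroid hormone (1.93, adjusted p = 0.012), Aacs, which activates ketone bodies (2.22, adjusted p = 0.012), and Clstn3, a calsyntenin (1.73, adjusted p = 0.0241). In the fit without the block these were −1.11 ± 0.26, 1.13 ± 0.31, 1.62 ± 0.56, 2.15 ± 0.52 and 1.50 ± 0.37.

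The supplemented groups were compared with the same 5 SD livers, so the comparisons are not independent of the one above, and only their own values are given. Of the 25 entries, 7 passed in HQ, 6 in HR and 6 in HQR, among 8, 12 and 8 genes called in all (0.0366%, 0.0549% and 0.0366%). The comparisons share the SD livers and the estimate of the spread, which favours such overlap, so these counts are not separate support. Cfd was 4.28 ± 0.60, 3.96 ± 0.58 and 4.10 ± 0.58 above SD in HQ, HR and HQR and passed in each. Enho was −1.35, −1.38 and −1.69 and H2-Q1 −1.72, −1.90 and −1.76, and both passed in each. Cyp2b9 was 4.47 in HQ (adjusted p = 0.0131), 3.08 in HR (adjusted p = 0.115) and 2.80 in HQR (adjusted p = 0.142), beside 5.97 in HFD. Cidea was 5.07, 3.63 and 3.28, and passed in HQ alone of these 3 groups. Hao2 passed in none of them and was well above background on 0 of 5, 0 of 6 and 1 of 6 arrays. Asns was −1.88, −2.40 and −2.71 and passed in HQR (adjusted p = 0.0486). Differences between HFD and the supplemented groups were not tested here.

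**Figure D5:**
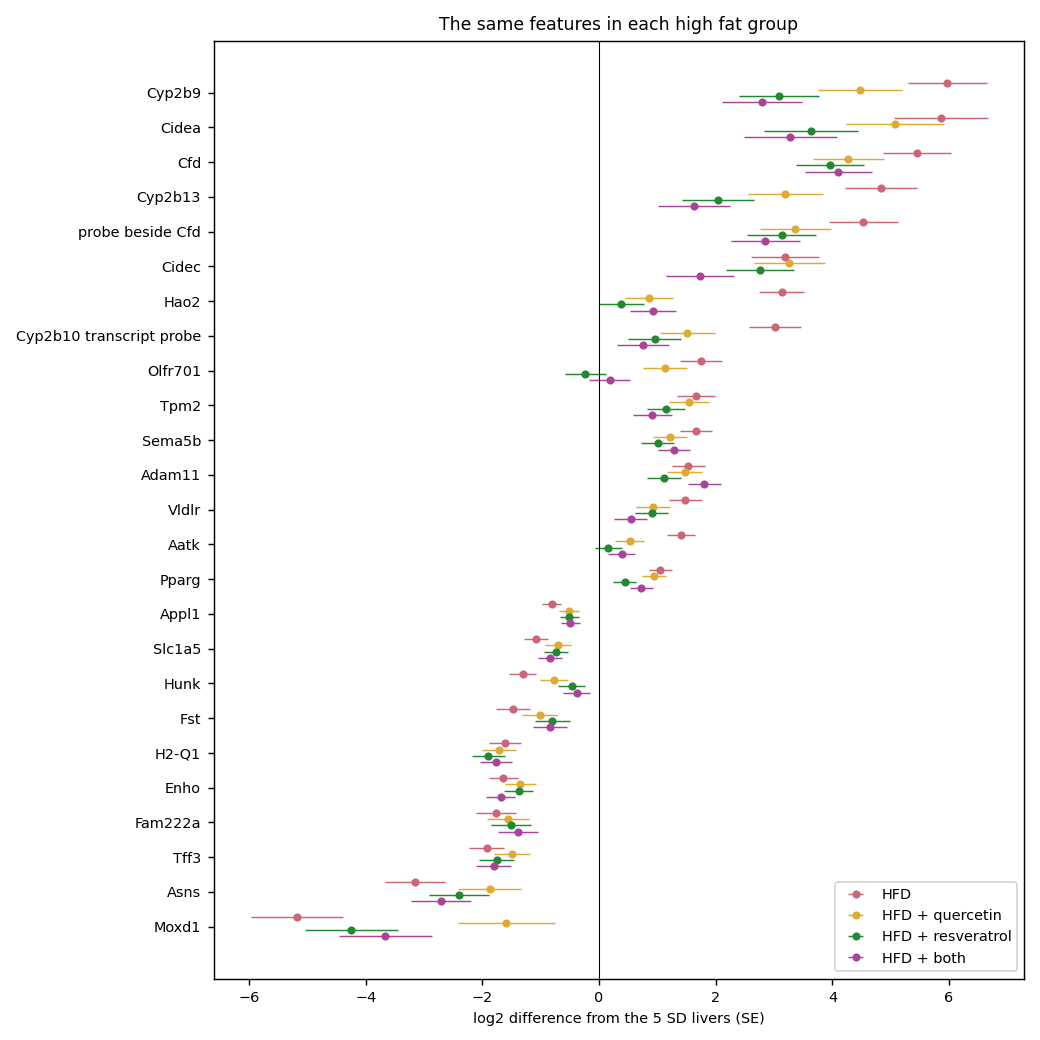
Points are log2 differences from the 5 SD livers, with SE, for each of the 25 entries (rows) in the HFD, HQ, HR and HQR groups (colours). All 4 comparisons share the SD livers. Cfd, Enho and H2-Q1 passed in every group, and Hao2, plotted at its fitted values, was well above background on no SD array.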

How the data were processed

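Total RNA of 28 livers was labelled with Cy3 and hybridised to 1-colour Agilent whole mouse genome arrays. The deposited scanner files hold spot intensity extracted with Feature Extraction 10.5.1.1 (protocol GE1_105_Dec08, mm9 coordinates), background-subtracted, per the file headers. The deposited value table holds a score per probe and array, with mean 0 and SD 1 on each array, that follows the log of the same intensity (correlation 0.9999 or higher); it was multiplied by 3.25 for use as an alternative, and its direction is that of the intensity. Intensities were put on a log2 scale from the deposited values, spots of a probe averaged, flagged outlier spots and controls left out, and the 75th percentile of each array subtracted. Probes well above background on at least 5 arrays were kept (32078 of 41174). Names came from RefSeq accessions for 25139 probes, symbols for 6316 and synonyms for 1623, and 8096 kept the design's name. The probe with the highest mean stood for a gene, which gave 21852 genes.

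A linear model over all 28 arrays with 5 group means was fitted with limma 3.58.1 in R 4.3.3, and HFD minus SD was tested with Benjamini-Hochberg adjustment over all genes, two-sided, at 0.05. Errors are SE from that model unless named SD. Fits across genes were tested on simulated data with noise drawn independently for each gene and array. That simulation held no correlation by slide or replicate number, so it does not check the calls where such correlation is present. Livers with the same replicate number deviated together (5 correlations of 0.217 to 0.698, median 0.517). The 25 correlations between unlike numbers ran from −0.649 to 0.645 (median −0.191). Some pairs of like number and some of unlike number shared a slide. The labels give no reason for pairs, so the comparison above was fitted without them. Pairs entered only in the replicate block, an alternative in which 6 of the 25 entries were lost. Slides (9) and scan days (4) come from the file headers. Alternatives were other scalings, background corrections, filters, probe choices and models, blocks for slide, for scan day and for replicate number, and fits without each array in turn; leaving out probes annotated to several genes was added after the data were seen.

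The gene lists (32 of pathways, 14 of cell markers) and the genes named were chosen with earlier results of these data known. The text names every called gene, up to 4 further members of a list with the smallest p, genes that passed with slide as a block but not without, neighbours of called genes and a set of genes studied in fatty liver; some genes under this rule are not reported here. Promoter entries from RefSeq (GRCm38.p6) were found for 15 of the 25 entries.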

Additional observations from a re-analysis of the deposited data

Results flagged for a closer look

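The spread of each group was examined for 1 liver far from the others, by a test that flags about 1 in 20 groups by chance, and 14 of 196 groups had one (7.14%). Among entries that passed, the Cyp2b10 transcript probe was at −3.12 in SD replicate 4, above the other SD livers (−4.56 to −4.19). Sema5b was at 0.52 in HFD replicate 4, below the other HFD livers (1.13 to 1.34), and H2-Q1 was at −1.63 in the same liver, above the others (−3.18 to −2.86). HFD replicate 5 was low for Apoa1 (6.78, others 7.41 to 7.61), C3 (9.59, others up to 10.2) and Igf1 (7.37, others 7.79 to 7.98). SD replicate 5 was high for Serpina7 (−0.22, others −2.33 to −1.82) and Cish (3.44, others 0.88 to 1.61) and low for Pnpla2 (3.47, others 4.09 to 4.30). SD replicate 1 was high for Fdft1 (2.06, others −0.11 to 0.41) and Acaca (0.50, others −1.13 to −0.71). Col1a1 was low in SD replicate 4 (−0.11, others 1.12 to 1.40) and Cyp2a4 in SD replicate 3 (6.01, others 7.00 to 7.38). The median coefficient of variation of replicate spots was 5.88% in HFD replicate 1 and 4.97% to 5.20% on the other HFD arrays.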

How the results depend on the processing

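The 25 entries (15 higher, 10 lower) numbered 10 (9 higher, 1 lower) when the HFD and SD arrays were fitted alone, 40 (24 and 16) with array weights and 81 (46 and 35) with slide as a random block, and 16 were lower with an intensity trend and robust estimation. With the replicate block, which pairs livers by number, 20 passed, 19 of them among the 25. Other alternatives gave 17 to 32, and leaving out 1 array gave 15 to 26 (9 to 14 higher, 6 to 12 lower). Of the 25, 15 were kept whichever array was left out, and 5 (Cfd and the probe beside it, Cyp2b9, Cyp2b13 and Cidea) under every alternative that could be run. No called difference changed direction. The difference between the diets in the 75th percentile of the signal ran from 101 to 150 when 1 array was left out, with exact permutation p from 0.00794 to 0.0619, and that in the percent of probes well above background from 1.64 to 5.17. Normexp moved the median of all genes to −0.14. Leaving out probes annotated to several genes, added after the data were seen, also called 25. Hao2 and Elane were not well above background on any SD array, so signal limits their differences to bounds.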
